A study of Mus with 18 samples.

Results

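The YAP and SRF target genes, 8 genes widely used as readouts of these transcriptional programs, were followed through the first hours after lens injury: Ccn1 (formerly Cyr61), Ccn2 (formerly Ctgf), Ankrd1, Amotl2, Lats2, Thbs1, Tagln and Srf itself. They were taken from the count tables by their Ensembl gene IDs, by a rule that holds no threshold on measured values although earlier results of these data were known when the list was made, and are 8 of the 55416 genes there. RNA was measured by RNA sequencing in mouse lens epithelial cells (LECs) that remained on the lens capsule after the fiber cell mass had been removed, a model of cataract surgery (post cataract surgery, PCS). The 18 libraries form 6 groups of 3, from wild type (WT), Egr1KO and FosBcKO mice aged 3 to 5 months and labelled as strain C57BL/6, with capsules taken at 0 h or at 6 h PCS. Egr1KO mice were homozygous for a germline Egr1 allele with a neo cassette in an exon, from a stock that the study's methods give as B6N mixed with 129. FosBcKO mice carried a Fosb allele with loxP-flanked exons that was deleted in the lens by MLR10 cre, a transgene driven by a modified alpha-A crystallin promoter. That the WT mice carried no cre or floxed allele is not stated in the sources used here. Each library pooled 5 capsules, and the other eye of a mouse was operated 6 h after the first, so a capsule taken at 0 h came from an animal whose first eye had already been injured.

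YAP and its relative TAZ are coactivators that the Hippo kinases, among them LATS2, hold in the cytoplasm. When cells spread, stretch or lose contacts these coactivators enter the nucleus and work with TEAD factors on genes such as Ccn1, Ccn2 and Ankrd1, and some targets, Amotl2 and Lats2 among them, encode inhibitors of YAP. SRF is a DNA-binding factor with distinct sets of partners: ternary complex factors, which respond to MAP kinase signaling and drive immediate early genes, and myocardin-related factors, which respond to the state of the actin cytoskeleton and drive genes such as Tagln. In the lens these programs are studied because residual LECs can spread, contract and become myofibroblasts, a course that underlies posterior capsular opacification.

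The libraries held between 9609295 and 13871592 counts assigned to genes. Levels are given in CPM, a count divided by the library's gene total and multiplied by 1e+06. CPM values are not divided by gene length, so they compare libraries for 1 gene and not genes with each other. The lens epithelial markers Foxe3, Pax6, Pitx3, Sox2 and Prox1 were present in every library, with a summed level of 1827 to 2095 CPM at 0 h and 550 to 1613 CPM at 6 h. The deposited counts cover whole genes, including the parts of Egr1 and Fosb that the alleles leave in place, so they do not check the genotype labels. At 6 h Egr1 stood at 1438 to 2046 CPM in WT and at 2083 to 4463 CPM in Egr1KO, and Fosb at 767 to 1539 CPM in WT and at 1430 to 1778 CPM in FosBcKO. Egr1KO and FosBcKO therefore name the libraries so labelled. On the first principal component, which separated 0 h from 6 h and held 43.6% of the variance, replicate 1 of Egr1KO at 6 h scored -4.70 while the other libraries at 6 h scored 23.6 or more and those at 0 h -39.4 or less. Values of the 8 genes that this library moved most are given with and without it.

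**Figure D1:**
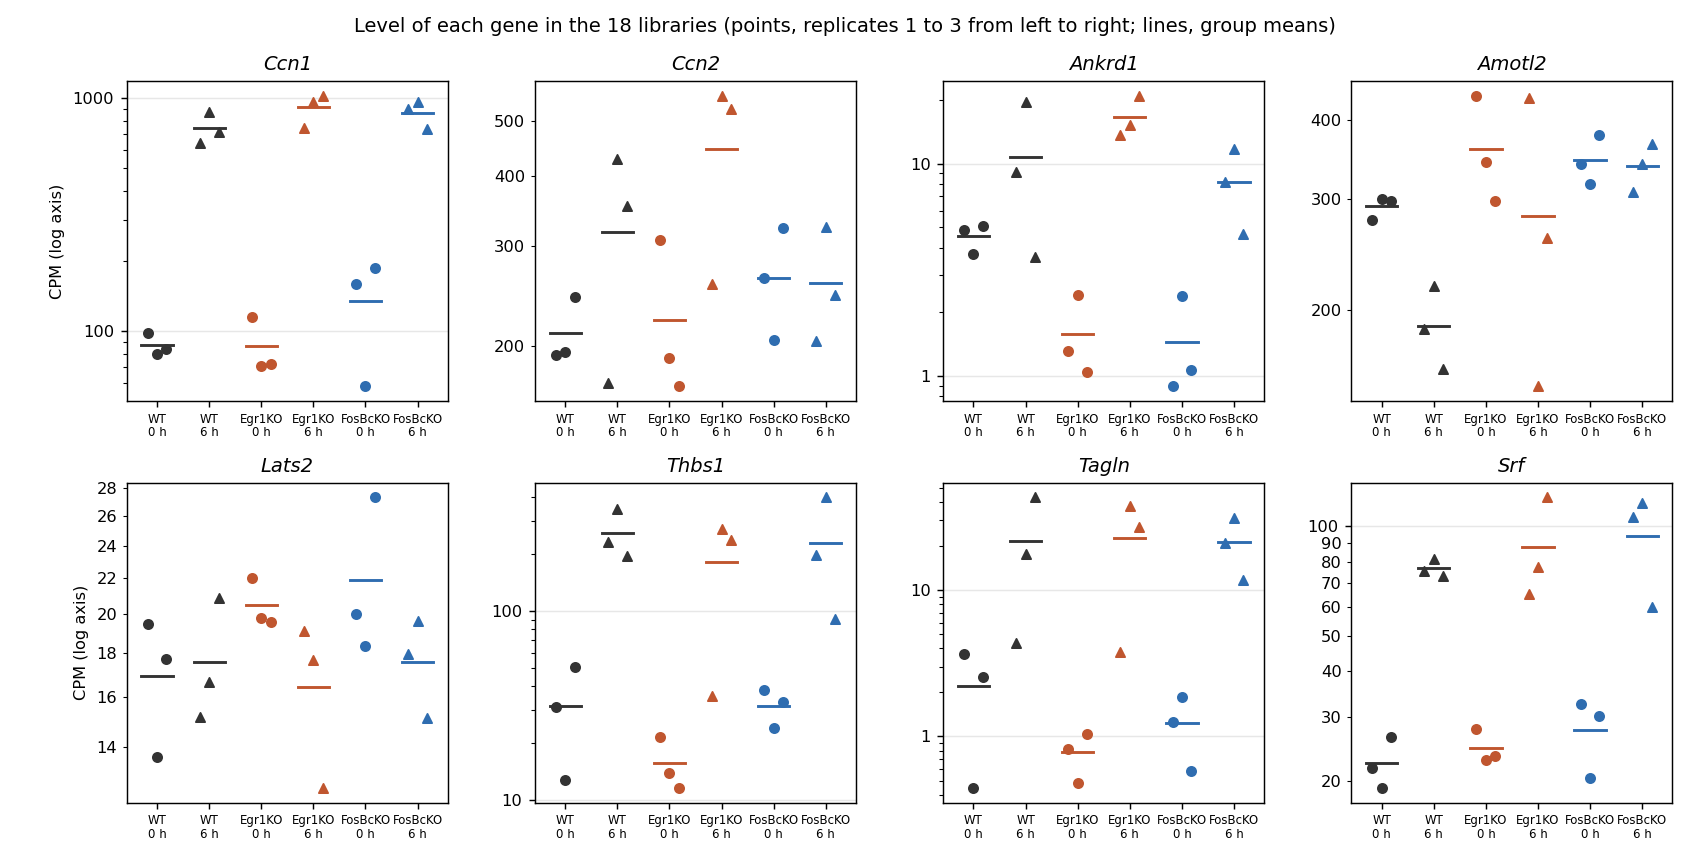
Each panel shows 1 gene, with CPM on a log axis (the axis range differs between panels) and the 6 groups along the x axis; points are libraries, with circles at 0 h and triangles at 6 h, and lines are group means. Ccn1 and Srf separate completely by time in all genotypes, whereas Ccn2, Amotl2 and Lats2 overlap between 0 h and 6 h in most of them, and Ankrd1 at 0 h lies lower in the knockouts than in WT.

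Srf (ENSMUSG00000015605), which encodes the factor itself and is also one of its own targets, was higher at 6 h than at 0 h in each genotype. In WT its level was 21.7, 19.1 and 26.5 CPM at 0 h and 75.3, 81.5 and 73.1 CPM at 6 h. In Egr1KO the levels were 27.7, 22.8 and 23.4 CPM at 0 h and 65.3, 77.5 and 120.2 CPM at 6 h. In FosBcKO they were 32.5, 20.4 and 30.1 CPM at 0 h and 106 CPM, 116 CPM and 60.1 CPM at 6 h. Thus the lowest of the 9 libraries at 6 h stood above the highest at 0 h, and the 3 groups at each time overlapped one another. The log2 fold change was 1.67 in WT (standard error, SE, 0.17, false discovery rate, FDR, 0.00128), 1.89 in Egr1KO (SE 0.25, FDR 0.00383) and 1.77 in FosBcKO (SE 0.29, FDR 0.00656), that is 3.19-fold, 3.71-fold and 3.42-fold. Averaged over the genotypes in a fit of all 18 libraries it was 1.79 (95% interval 1.46 to 2.11, FDR 2.67e-07), and no single library was needed for any of these calls. Without replicate 1 of Egr1KO at 6 h the change in Egr1KO was 2.02 (FDR 0.000299).

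Ccn1 (ENSMUSG00000028195), a secreted matricellular protein that binds integrins, rose in each genotype. WT libraries held 97.7, 79.8 and 84.1 CPM at 0 h and 645, 877 and 715 CPM at 6 h. Egr1KO libraries held 115 CPM, 70.8 CPM and 72.0 CPM at 0 h and 749, 969 and 1029 CPM at 6 h. FosBcKO libraries held 160.0 CPM, 57.9 CPM and 186 CPM at 0 h and 898, 965 and 736 CPM at 6 h. The highest library at 0 h, at 186 CPM, lay far below the lowest at 6 h, at 645 CPM, but the FosBcKO group at 0 h was spread widely, with a coefficient of variation of 50.4% against 10.7% in WT. Its log2 fold change was 3.00 in WT (SE 0.22, FDR 0.000688), 3.47 in Egr1KO (SE 0.24, FDR 0.000457) and 2.68 in FosBcKO (SE 0.44, FDR 0.00945). The average over genotypes was 3.05 (95% interval 2.63 to 3.48, FDR 1.68e-08), an 8.31-fold change. Without replicate 1 of FosBcKO at 6 h the change in that genotype was 2.65, close to the value with it, and was not called (FDR 0.0747). That fit called 978 of all genes, where the fit with every FosBcKO library called 2027. Without replicate 1 of Egr1KO at 6 h the change in Egr1KO was 3.55 (FDR 1.89e-05).

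Ccn2 (ENSMUSG00000019997), the closest relative of Ccn1 among the members and a matricellular protein of fibrotic tissue, was not called in any genotype. WT libraries held 193, 195 and 244 CPM at 0 h and 172, 428 and 354 CPM at 6 h. Egr1KO libraries held 308, 191 and 169.8 CPM at 0 h and 257, 554 and 524 CPM at 6 h. FosBcKO libraries held 264, 205 and 324 CPM at 0 h and 204, 324 and 246 CPM at 6 h. The times overlapped in every genotype, and in WT 1 library at 6 h lay below all 3 at 0 h. The log2 fold changes were 0.49 in WT (95% interval -0.23 to 1.21, FDR 0.274), 1.04 in Egr1KO (0.31 to 1.78, FDR 0.0518) and -0.02 in FosBcKO (-0.57 to 0.53, FDR 0.958), and none was called. The average over genotypes, 0.51 (0.09 to 0.93), passed the FDR at 0.0400 but not the 2-fold minimum. The Egr1KO value sat at the threshold, being called by DESeq2 (1.07, FDR 0.00669), by the edgeR exact test (FDR 0.0143), in the fit of all 18 libraries (1.06, FDR 0.0364), without the robust option (FDR 0.0469), and without replicate 1 of Egr1KO at 6 h (1.28, FDR 0.00461).

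Thbs1 (ENSMUSG00000040152), thrombospondin 1, a matricellular protein that can activate latent TGF-beta, was higher at 6 h in each genotype with a wide spread. WT libraries held 30.9, 12.7 and 50.4 CPM at 0 h and 231, 348 and 195 CPM at 6 h. Egr1KO libraries held 21.5, 13.9 and 11.6 CPM at 0 h and 35.4 CPM, 272 CPM and 237 CPM at 6 h. FosBcKO libraries held 37.9, 24 and 32.8 CPM at 0 h and 199 CPM, 399.7 CPM and 91.2 CPM at 6 h. Within each genotype the times did not overlap, although replicate 1 of Egr1KO at 6 h lay below 1 WT and 1 FosBcKO library at 0 h. For this gene the log2 fold change was 2.96 in WT (SE 0.49, FDR 0.00538), 3.56 in Egr1KO (SE 0.68, FDR 0.0130) and 2.90 in FosBcKO (SE 0.60, FDR 0.0238), with an average of 3.15 (95% interval 2.24 to 4.06, FDR 4.44e-05). In Egr1KO the change without replicate 1 at 6 h was 4.02 (FDR 1.25e-05), and the call was lost without replicate 2 at 0 h (FDR 0.0539), replicate 3 at 0 h (FDR 0.0628) or replicate 2 at 6 h (FDR 0.0510). In FosBcKO it was lost without replicate 2 at 0 h (FDR 0.0655), replicate 3 at 0 h (FDR 0.0750) or replicate 1 at 6 h (FDR 0.111). With the replicate number as a block the FosBcKO change was 2.62 and was not called (FDR 0.152). With no filter on low counts it was lost in WT (FDR 0.0536), Egr1KO (FDR 0.0917) and FosBcKO (FDR 0.101).

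Ankrd1 (ENSMUSG00000024803), a nuclear ankyrin repeat protein of stretched muscle and epithelium, was a gene of low count, with 10 to 52 counts per library at 0 h and 38 to 222 at 6 h. WT libraries held 4.88, 3.73 and 5.06 CPM at 0 h and 9.14, 19.5 and 3.62 CPM at 6 h. Egr1KO libraries held 1.31, 2.40 and 1.04 CPM at 0 h and 13.6, 15.2 and 20.9 CPM at 6 h. FosBcKO libraries held 0.892, 2.38 and 1.07 CPM at 0 h and 8.16, 11.8 and 4.64 CPM at 6 h. The times separated in both knockouts but not in WT, where replicate 3 at 6 h was below every WT library at 0 h. The log2 fold change was 1.17 in WT (SE 0.57, FDR 0.162, not called), 3.45 in Egr1KO (SE 0.38, FDR 0.00199) and 2.53 in FosBcKO (SE 0.53, FDR 0.0112). Without replicate 3 of WT at 6 h the WT change was 1.61 and was called (FDR 0.0140), and without replicate 2 of FosBcKO at 6 h the FosBcKO change was 2.06 and was not (FDR 0.0517). In Egr1KO the change without replicate 1 at 6 h was 3.53 (FDR 0.000320), and the average over genotypes was 2.39 (95% interval 1.72 to 3.06, FDR 1.24e-05).

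Tagln (ENSMUSG00000032085), transgelin or SM22-alpha, an actin-associated protein of smooth muscle and myofibroblasts, had the largest average change of the 8 genes and the least certain one in WT. WT libraries held 3.64, 0.444 and 2.53 CPM at 0 h, from 38, 5 and 26 counts, and 4.34, 17.5 and 43.0 CPM at 6 h. Egr1KO libraries held 0.816, 0.480 and 1.04 CPM at 0 h and 3.76, 37.8 and 26.9 CPM at 6 h. FosBcKO libraries held 1.25, 1.87 and 0.582 CPM at 0 h and 20.9, 30.8 and 11.8 CPM at 6 h. Every library at 6 h was above all at 0 h, but replicate 1 of WT and replicate 1 of Egr1KO at 6 h exceeded the highest library at 0 h by little. The log2 fold change was 3.15 in WT (SE 0.89, FDR 0.0361), 4.89 in Egr1KO (SE 0.84, FDR 0.00958) and 4.13 in FosBcKO (SE 0.49, FDR 0.00148), with an average of 4.06 (95% interval 2.88 to 5.25, FDR 4.23e-05). With the replicate number as a block, since WT libraries of the same number deviated together, the WT change was 2.96 with an FDR of 0.131 and was not called. The WT call was also lost without replicate 1, 2 or 3 at 0 h (FDR 0.0640, 0.0648 and 0.0804), without replicate 2 or 3 at 6 h (FDR 0.0843 and 0.140), and with no filter on low counts (FDR 0.194). In Egr1KO the change without replicate 1 at 6 h was 5.36 (FDR 1.18e-05), and the call was lost without replicate 1 at 0 h (FDR 0.0506) and with no filter (FDR 0.0616).

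Amotl2 (ENSMUSG00000032531), an angiomotin family scaffold that binds and restrains YAP, was lower at 6 h in WT by less than 2-fold. WT libraries held 278 CPM, 299.8 CPM and 298 CPM at 0 h and 187, 218 and 161 CPM at 6 h. Egr1KO libraries held 438, 344 and 298 CPM at 0 h and 434, 151 and 260.3 CPM at 6 h. FosBcKO libraries held 340.5, 317 and 379.6 CPM at 0 h and 307, 341 and 367 CPM at 6 h. Every WT library at 6 h was below every one at 0 h, whereas the times overlapped in both knockouts, in Egr1KO because of replicate 1 at 6 h alone. The log2 fold change in WT was -0.73 (95% interval -1.17 to -0.29, FDR 0.0266), which passed the FDR but not the 2-fold minimum. It was -0.27 in Egr1KO (-1.14 to 0.59, FDR 0.622), or -0.78 (FDR 0.0723) without replicate 1 at 6 h, and -0.03 in FosBcKO (-0.39 to 0.33, FDR 0.919). The average over genotypes was -0.33 (FDR 0.0950), and -0.54 (FDR 0.00222) without replicate 1 of Egr1KO at 6 h, whose level of 434 CPM was the highest of that time.

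Lats2 (ENSMUSG00000021959), a Hippo kinase that phosphorylates YAP, showed no change that passed the test. Its 9 libraries at 0 h ranged from 13.6 to 27.3 CPM and the 9 at 6 h from 12.5 to 20.9 CPM. Its log2 fold change was -0.06 in WT (95% interval -0.53 to 0.42, FDR 0.861), -0.26 in Egr1KO (-0.76 to 0.24, FDR 0.411) and -0.32 in FosBcKO (-0.85 to 0.21, FDR 0.359). The average was -0.20 (-0.47 to 0.06, FDR 0.185), so these intervals leave out a 2-fold change in either direction.

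**Figure D2:**
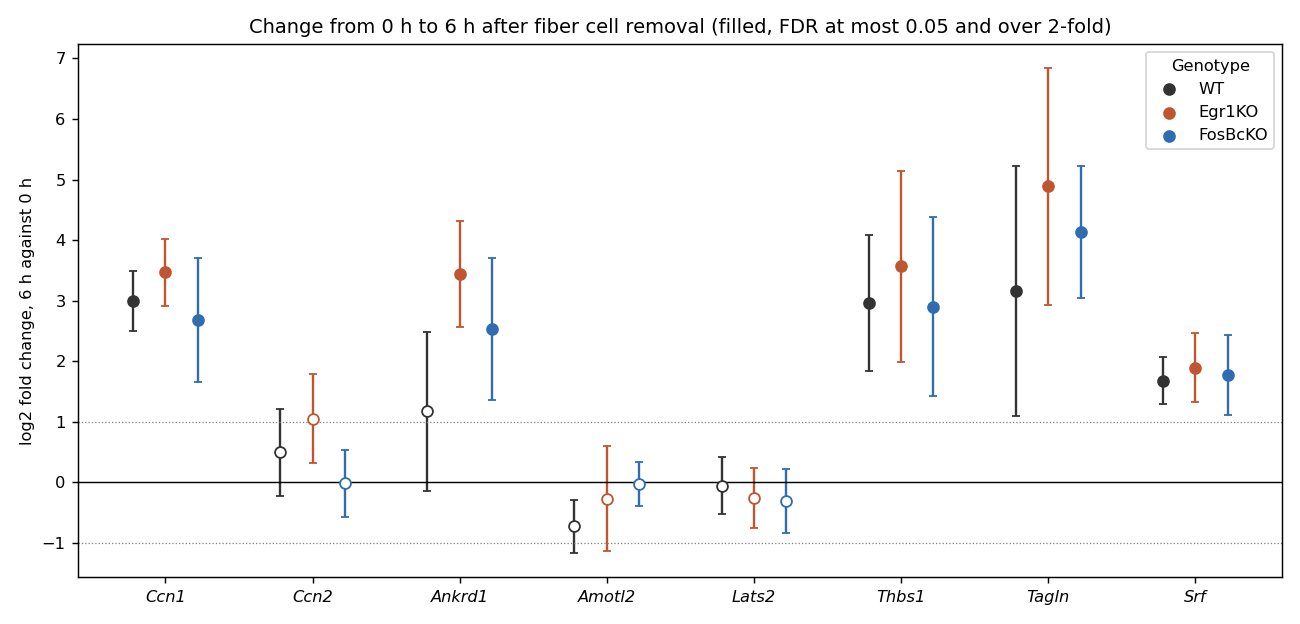
The y axis gives the log2 fold change of 6 h against 0 h for each gene on the x axis, with 1 point per genotype and bars for the 95% interval of the quasi-likelihood fit; filled points passed an FDR of 0.05 and a 2-fold change. Ccn1, Thbs1, Tagln and Srf are filled in all 3 genotypes and Ankrd1 in both knockouts, while Ccn2, Amotl2 and Lats2 are filled in none.

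The groups were also put in order by their mean CPM (± SD, n = 3 each). Srf ran from 94.2 ± 29.9 in FosBcKO at 6 h over 87.7 ± 28.8 in Egr1KO and 76.7 ± 4.38 in WT at 6 h to 27.7 ± 6.38, 24.7 ± 2.68 and 22.4 ± 3.73 at 0 h in FosBcKO, Egr1KO and WT. Ccn1 ran from 916 ± 147 in Egr1KO, 866 ± 118 in FosBcKO and 746 ± 119 in WT at 6 h to 135 ± 67.9 in FosBcKO, 87.2 ± 9.36 in WT and 86.0 ± 25.4 in Egr1KO at 0 h. For both genes the 1 pair of neighbors in this order whose libraries did not overlap was the step from 6 h to 0 h. Tagln had its non-overlapping step at the same place, with 22.8 ± 17.4, 21.6 ± 19.6 and 21.2 ± 9.54 at 6 h in Egr1KO, WT and FosBcKO, and 2.20 ± 1.62, 1.23 ± 0.642 and 0.779 ± 0.282 at 0 h in WT, FosBcKO and Egr1KO. Thbs1 had 258 ± 80.0 in WT, 229.8 ± 157 in FosBcKO and 181 ± 128 in Egr1KO at 6 h, and 31.6 ± 7.07 in FosBcKO, 31.3 ± 18.8 in WT and 15.7 ± 5.22 in Egr1KO at 0 h and all its neighbors in the order overlapped, since replicate 1 of Egr1KO at 6 h lay within the range of FosBcKO at 0 h. For Ankrd1, by contrast, the step fell within 0 h, between WT at 4.56 ± 0.720 and Egr1KO at 1.58 ± 0.721, above FosBcKO at 1.45 ± 0.816, while WT at 0 h overlapped its neighbor above, FosBcKO at 6 h with 8.18 ± 3.56, which followed WT at 10.7 ± 8.04 and Egr1KO at 16.6 ± 3.85 at 6 h. Amotl2 was highest in Egr1KO and FosBcKO at 0 h (360.1 ± 71.2 and 346 ± 31.7) and in FosBcKO at 6 h (339 ± 29.9), and this last group did not overlap the next, WT at 0 h (292 ± 12.3), which was followed by Egr1KO and WT at 6 h (282 ± 142 and 189 ± 28.6). No neighbors separated for Ccn2, whose means lay between 211 ± 28.7 in WT at 0 h and 445 ± 163 in Egr1KO at 6 h, or for Lats2, whose means lay between 16.4 ± 3.46 in Egr1KO at 6 h and 21.9 ± 4.79 in FosBcKO at 0 h.

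All 8 genes passed the filter on low counts in every comparison. Counted together, 4 of the 8 were called at 6 h in WT (Ccn1, Thbs1, Tagln and Srf), all higher, beside 17.1% of the 15440 genes tested, or 13.5% called higher. With the replicate block 3 were called in WT (Ccn1, Thbs1 and Srf). In Egr1KO 5 of 8 were called, all higher (background 12%, or 9.28% higher), and in FosBcKO also 5 of 8 (13.1%, or 11.2% higher), with Ankrd1 as the addition in both. The replicate block left 4 calls in FosBcKO (Ccn1, Ankrd1, Tagln and Srf). Without replicate 1 of FosBcKO at 6 h, 3 were called in FosBcKO (Ankrd1, Tagln and Srf), and with no filter on low counts 2 were called in WT and 3 in Egr1KO. Averaged over genotypes 5 of 8 were called, beside 22.5% of all genes, or 19.3% higher. The median log2 fold change of the 8 genes was 1.42 in WT, 2.67 in Egr1KO and 2.15 in FosBcKO, where the median over all genes tested was -0.02, 0.00 and 0.05. Libraries at 6 h stood wholly above those at 0 h for 4 genes in WT (28.2% of all genes), 5 in Egr1KO (18.1%) and 5 in FosBcKO (22.8%). They stood wholly below for Amotl2 in WT (19.8%), for Lats2 in Egr1KO (25.2%) and for none of the 8 in FosBcKO (20.1%).

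The response of the 8 genes was next compared between genotypes, the question being whether loss of Egr1 or Fosb alters it. None of the 8 was called in a knockout against WT by the edgeR exact test, where 0.41% of all genes were called for Egr1KO at 0 h, 0.736% for Egr1KO at 6 h, 0.295% for FosBcKO at 0 h and 5.41% for FosBcKO at 6 h. Leaving out 1 library gave 1 call in Egr1KO at 0 h (Thbs1, without replicate 2 of WT), 1 in Egr1KO at 6 h (Amotl2, without replicate 2 of Egr1KO), 2 in FosBcKO at 0 h (Ccn1 and Ankrd1, without replicate 2 of FosBcKO) and 1 in FosBcKO at 6 h (Amotl2, without replicate 2 of WT or replicate 1 of FosBcKO). With all libraries none was called by DESeq2 or the edgeR quasi-likelihood test either. At an unadjusted p under 0.05 there was 1 of 8 for Egr1KO at 0 h, 0 at 6 h, and 1 for FosBcKO at each time, where the share over all genes was 6.4%, 9.67%, 5.62% and 16.5% in the same order. Both knockouts were compared with the same WT libraries, so the sets of values are not independent.

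Ankrd1 was the member with an unadjusted p under 0.05 in both knockouts at 0 h. Its 3 WT libraries held 3.73 to 5.06 CPM, above the 1.04 to 2.40 CPM of Egr1KO and the 0.892 to 2.38 CPM of FosBcKO. The log2 difference from WT was -1.50 in Egr1KO (SE 0.47, exact test p = 0.00322, FDR 0.222) and -1.66 in FosBcKO (SE 0.52, exact test p = 0.00246, FDR 0.275), that is 2.83-fold and 3.17-fold lower, and neither passed the correction over all genes. Libraries lay wholly below WT for 9.32% of all genes in Egr1KO and 6.57% in FosBcKO. Wholly above WT at 0 h lay Lats2 in Egr1KO (7.2% of all genes) and Amotl2 in FosBcKO (7.63%). At 6 h the groups overlapped, at 0.80 (95% interval -0.47 to 2.08) in Egr1KO, and FosBcKO lay at -0.29 (-1.68 to 1.10). The difference between the injury responses, tested as an interaction, was 2.26 for Egr1KO (SE 0.75, unadjusted p = 0.00739 and FDR 0.694 by the edgeR quasi-likelihood test) and 1.31 for FosBcKO (SE 0.75, FDR 0.790). Without replicate 2 of FosBcKO at 0 h the difference at 0 h was -2.18 and was called (FDR 0.0343).

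Amotl2 was the member closest to a call at 6 h. FosBcKO libraries held 307 to 367 CPM and WT libraries 161 to 218 CPM, with no overlap, a position that 9.99% of all genes shared. The log2 difference was 0.96 (SE 0.24, 95% interval 0.42 to 1.51, exact test FDR 0.0100), or 1.95-fold, just under the 2-fold minimum. Without replicate 2 of WT at 6 h it was 1.11 and without replicate 1 of FosBcKO at 6 h it was 1.08, and both were called (FDR 0.00669 and 0.00783). In Egr1KO the difference was 0.81 (SE 0.40, FDR 0.544) with overlapping libraries, and none of the 8 genes lay wholly above WT there (3.17% of all genes did) or wholly below (13.8%). In FosBcKO at 6 h none lay wholly below WT (11.8%). Without replicate 2 of Egr1KO at 6 h the Amotl2 difference was 1.14 and was called (FDR 0.0253), and without replicate 1 it was 0.33 (FDR 0.931). At 0 h the differences were 0.32 in Egr1KO (FDR 0.771) and 0.24 in FosBcKO (FDR 1).

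The genes with the strongest response to injury gave differences from WT at 6 h that were small or imprecise. For Ccn1 the log2 difference was 0.50 in Egr1KO (95% interval -0.12 to 1.12) and 0.34 in FosBcKO (-0.27 to 0.95). For Srf it was 0.41 (-0.19 to 1.01) and 0.43 (-0.19 to 1.04). Both genes had higher group means in each knockout than in WT, with libraries that overlapped. For Thbs1 the difference was -0.34 (-1.74 to 1.07) in Egr1KO and -0.02 (-1.19 to 1.15) in FosBcKO. For Tagln it was 0.30 (-1.63 to 2.23) and 0.17 (-1.34 to 1.67), intervals wide enough to hold a 2-fold difference either way. Without replicate 1 of Egr1KO at 6 h the Thbs1 difference in Egr1KO was 0.15 (FDR 0.992) and that of Tagln 0.81 (FDR 0.868). At 0 h, Thbs1 in Egr1KO was at -0.97 (FDR 0.844) and without replicate 2 of WT at 0 h at -1.33, which was called (FDR 0.00342). Ccn1 in FosBcKO was at 0.64 (FDR 1) and without replicate 2 of FosBcKO at 0 h at 1.01, which was called (FDR 3.74e-05).

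No interaction of time with genotype was called for any of the 8 genes. The background was 0 of 17469 genes for both knockouts, with 1141 genes at an unadjusted p under 0.05 for Egr1KO and 1171 for FosBcKO, while DESeq2 called 2 genes and 32 genes, none of them a member. Of the 8 genes, Ankrd1 in Egr1KO had an unadjusted p under 0.05. For Ccn1 the response differed from that of WT by 0.45 (SE 0.46) in Egr1KO and -0.37 (SE 0.46) in FosBcKO, and for Srf by 0.19 (SE 0.37) and 0.04 (SE 0.37). With no filter on low counts the Ankrd1 interaction in Egr1KO was 2.30 and was called (FDR 0.0125), in a fit that called 264 genes where the filtered one called 0.

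**Figure D3:**
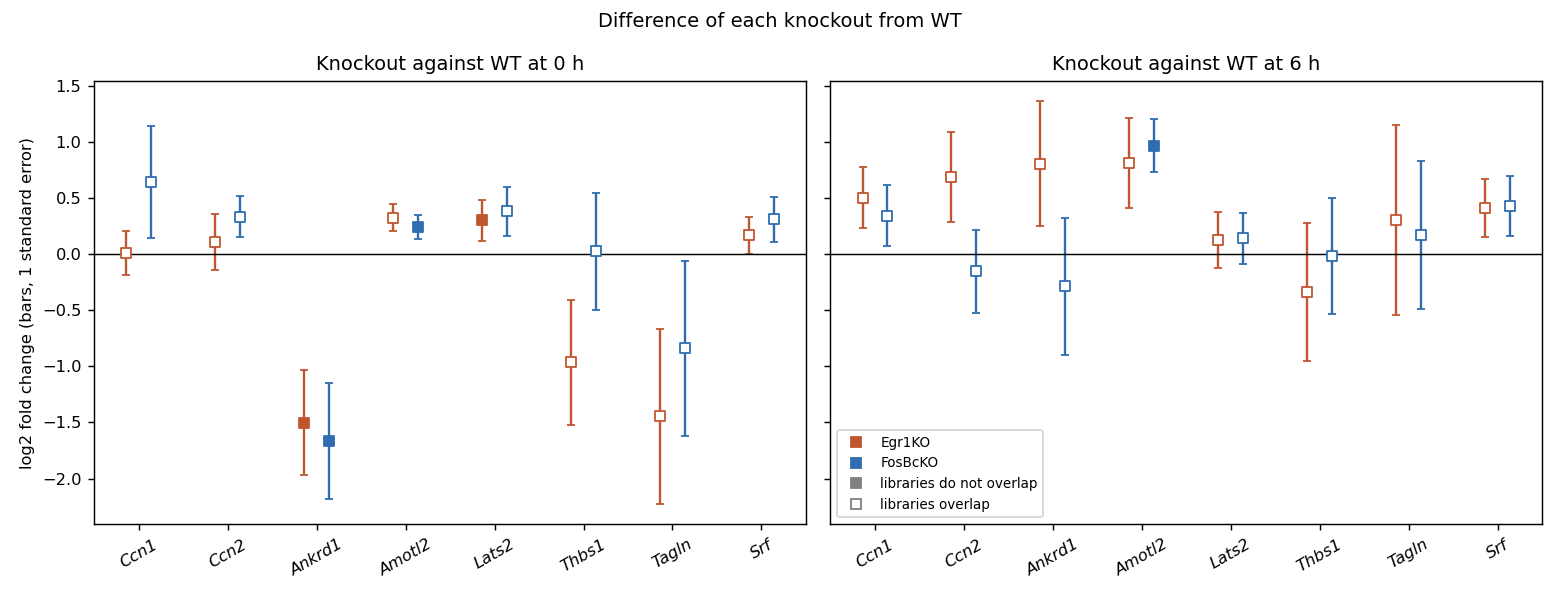
The y axis gives the log2 fold change of each knockout against WT at 0 h (left) and at 6 h (right) for the 8 genes, with bars of 1 standard error and filled points where the libraries of the knockout and WT do not overlap. Ankrd1 at 0 h lies at -1.50 in Egr1KO and -1.66 in FosBcKO, Amotl2 at 6 h lies at 0.96 in FosBcKO, and no point passed both the FDR and the 2-fold minimum.

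Because the counts of 2 genes of the same library share its depth, their ratio needs no scaling, and 7 such ratios were computed. The count of Ccn1 over that of Ccn2 was 0.283 to 0.607 in the 9 libraries at 0 h and 1.75 to 4.39 in the 9 at 6 h, a 6.25-fold mean change. Ccn1 over Amotl2 went from 0.183 to 0.491 at 0 h to 1.73 to 6.41 at 6 h, and Ccn1 over Lats2 from 3.15 to 7.99 at 0 h to 34.2 to 81.9 at 6 h. The ranges of these 3 ratios did not overlap between times. Ccn1 over Srf also separated, at 2.83 to 6.19 and 8.30 to 12.5, whereas Ccn1 over Thbs1 overlapped at 1.67 to 6.26 and 2.41 to 21.1. Ccn1 over Ankrd1 also overlapped, at 16.5 to 171 and 45.0 to 195, with a mean log2 change of 2.16 in WT, 0.02 in Egr1KO and 0.35 in FosBcKO. Tagln over Srf, both counted as SRF targets, was 0.0209 to 0.169 at 0 h and 0.0582 to 0.588 at 6 h and overlapped. These pairs were chosen after the values were seen, so they are described without a test.

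**Figure D4:**
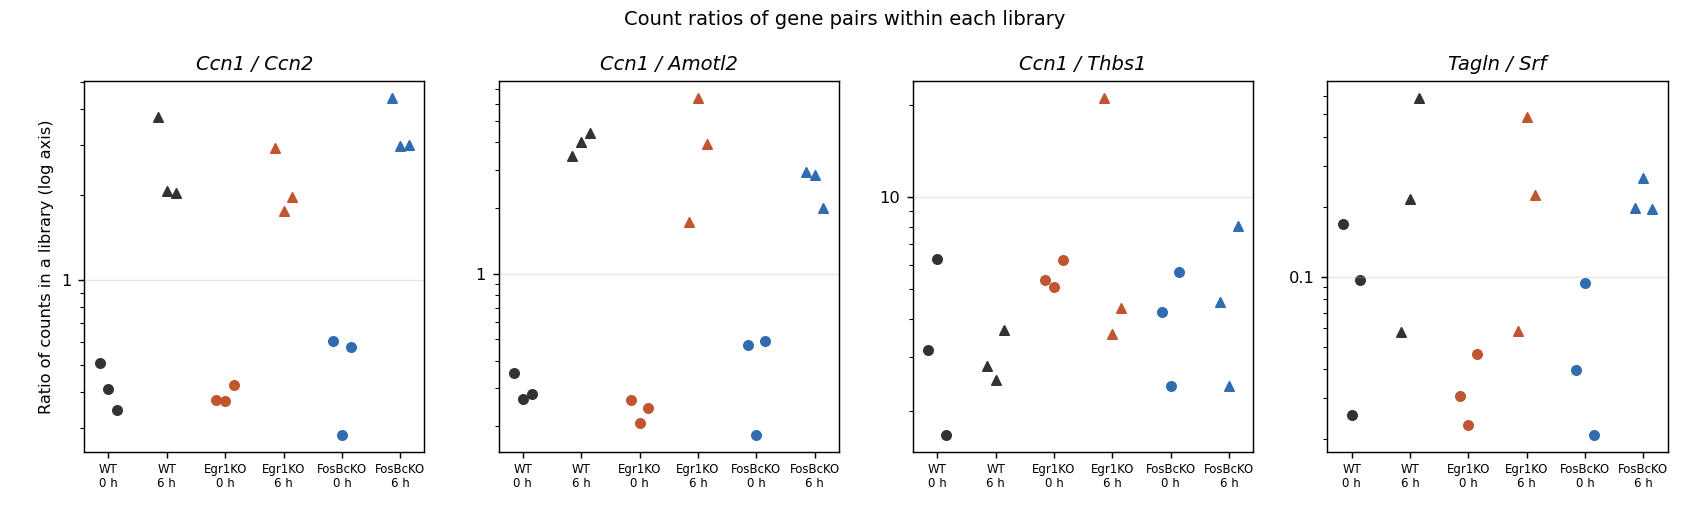
Each panel gives the ratio of the counts of 2 genes in each library on a log axis, with circles at 0 h and triangles at 6 h in the 6 groups. The ratios of Ccn1 to Ccn2 and of Ccn1 to Amotl2 lie higher in every library at 6 h than in any at 0 h, while that of Ccn1 to Thbs1 overlaps, its highest point of 21.1 being replicate 1 of Egr1KO at 6 h.

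With group means removed, Pearson's r of log2 CPM over the 18 libraries ran from -0.60 to 0.74 over the 28 pairs of members, with a median of 0.225. It was over 0.4 for 10 pairs, under -0.4 for 1 and between for 17. Among the pairs over 0.4 it was 0.74 for Thbs1 and Srf (Spearman's rho 0.73), 0.69 for Ccn1 and Srf (rho 0.75) and 0.63 for Ccn1 and Ccn2 (rho 0.72). Without the 2 libraries farthest from the median of the first gene these were 0.66, 0.69 and 0.67. Ankrd1 and Ccn1 went together at 6 h, with r = 0.82 over 9 libraries, and apart at 0 h, with r = -0.73. Amotl2 and Tagln had r = -0.60, which was -0.32 without replicate 1 of Egr1KO at 6 h, and Amotl2 and Thbs1 went from -0.38 to 0.24 without it. These are descriptions with no test, since libraries share depth scaling and composition.

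**Figure D5:**
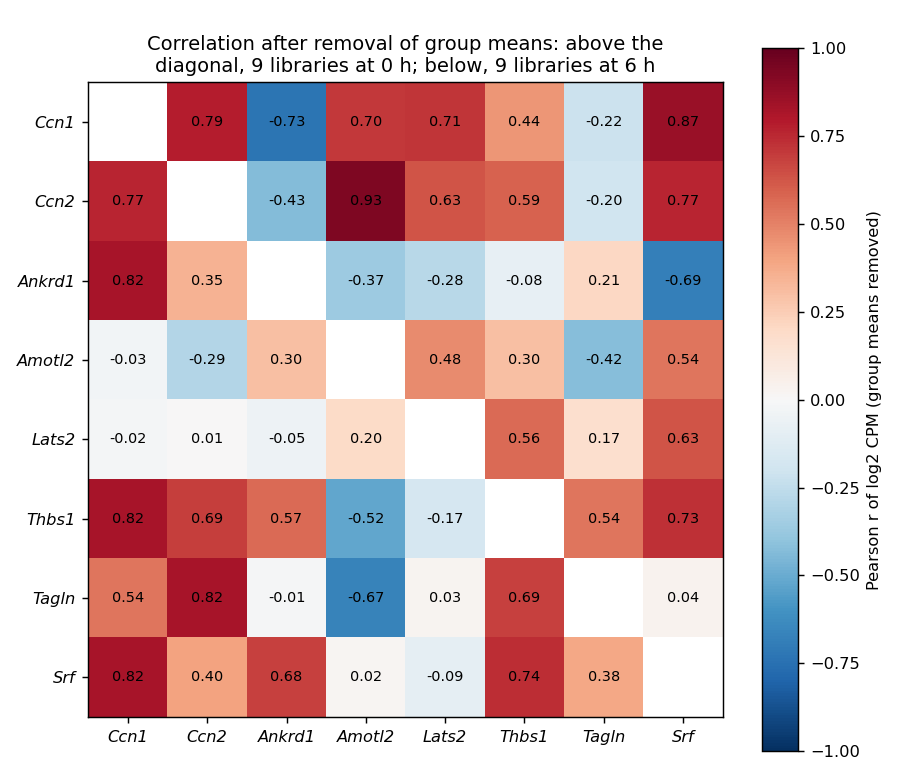
The matrix gives Pearson's r of log2 CPM between the 8 genes after removal of group means, over the 9 libraries at 0 h above the diagonal and the 9 at 6 h below it, with color from -1 to 1. Ccn1, Ccn2 and Srf are positive with one another at both times, from 0.40 to 0.87, whereas Ankrd1 and Ccn1 differ in sign between the times.

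Among 17469 genes, those whose log2 CPM was most like that of each member over the 18 libraries were found by Pearson's r, a value that includes the difference between 0 h and 6 h. Ccn1 was closest to Srf (r = 0.971) and Egr1 (0.968), and Srf to Sh3bp4 (0.980) and Ccn1. Thbs1 was closest to Rell1 (0.966) and Vasn (0.960). Tagln was closest to Ifi202b (0.942). Ankrd1 was closest to Gm43259 (0.943) and Mbnl2 (0.941), and Amotl2 to Srebf1 (0.936), a regulator of lipid synthesis, and Zhx2 (0.933). Ccn2 had an unnamed gene (0.869) and Zbp1 (0.843), and Lats2 had Taf6l (0.777) and an unnamed gene (0.732).

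The wider programs were read from lists of related genes. Names for the gene IDs came from the study's own tables, some of which are ranked by change in these libraries, so the named genes lean toward changed ones and their counts are not representative of the lists. Of 10 immediate early SRF targets, all named, 10 were called higher in each genotype, with a median log2 fold change of 3.25 in WT. The leading ones in WT were Fosb (6.21, FDR 0.00151), Fos (3.99, FDR 0.00315), Egr1 (3.69, FDR 0.00128) and Dusp5 (3.40, FDR 0.00116), the first 3 being transcription factors and the last a phosphatase of ERK. Of 27 cytoskeletal SRF targets, 18 were named and tested in WT, with 4 higher, 2 lower and a median of 0.09, against 5 higher and 1 lower of 17 in Egr1KO and 3 higher and 1 lower of 17 in FosBcKO. Over all genes the share called higher was 13.5% in WT, 9.28% in Egr1KO and 11.2% in FosBcKO, so the count in FosBcKO was near that background.

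Among those cytoskeletal genes, Acta2, the smooth muscle actin that marks myofibroblasts, fell while Tagln rose. The study instead lists Acta2 in WT as not significantly changed by 6 h, with a fold change in the other direction. Data for that comparison were deposited by the study apart from those of its knockout comparisons. Whether the same WT libraries were used is not stated in the sources used here, and the source of this difference was not tested. Acta2 held 211 to 321 CPM at 0 h and 38.3 to 97.7 CPM at 6 h in WT, with a log2 fold change of -2.15 in WT (SE 0.38, FDR 0.00662), -1.71 in Egr1KO (SE 0.16, FDR 0.000849) and -1.21 in FosBcKO (SE 0.30, FDR 0.0263). Vcl, vinculin of focal adhesions, rose by 1.26 in WT (FDR 0.00312), 2.06 in Egr1KO (FDR 0.0146) and 1.90 in FosBcKO (FDR 0.0125). Itga5, the alpha subunit of the fibronectin receptor, rose by 2.01 in WT (FDR 0.00128). Fhl2, a LIM-only cofactor, went from 0 to 0.479 CPM at 0 h to 1.51 to 7.26 CPM at 6 h in WT (FDR 0.0244), a level too low at 0 h for a fold change.

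Of 22 genes of a YAP target signature, 5 of them members, 17 were named and tested in WT, with 6 higher, 1 lower and a median log2 fold change of 0.48. In Egr1KO 7 of 16 tested were higher and none lower, and in FosBcKO 7 of 16 higher and none lower, counts that include the members Ccn1 in WT and Ccn1 and Ankrd1 in each knockout. Over all genes 13.5%, 9.28% and 11.2% were called higher in the same order, and 17.1%, 12% and 13.1% in either direction. F3, tissue factor, which starts coagulation, rose by 4.30 in WT (SE 0.43, FDR 0.00137), and Nt5e, an enzyme that makes adenosine, by 2.47 (SE 0.39, FDR 0.00448). Igfbp3, a carrier of insulin-like growth factors, went from 0 to 0.178 CPM at 0 h to 3.30 to 5.75 CPM at 6 h in WT (FDR 0.00270).

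Of 25 Hippo pathway genes 12 were named and tested, with 1 higher and 1 lower in WT (median -0.07), 2 higher and 1 lower in Egr1KO, and 1 lower in FosBcKO. Over all genes the share called higher was 13.5%, 9.28% and 11.2% in the same order of genotypes, and in either direction 17.1%, 12% and 13.1%. In WT Ajuba, a LIM protein that inhibits LATS kinases, fell by 1.62 on the log2 scale (SE 0.24, FDR 0.00318) and Frmd6, a FERM protein upstream of the kinases, rose by 1.23 (SE 0.33, FDR 0.0284). Yap1 changed by 0.08 in WT (FDR 0.850), 0.38 in Egr1KO (FDR 0.107) and 0.20 in FosBcKO (FDR 0.476), and Tead1 by -0.37 (FDR 0.159), 0.10 (FDR 0.622) and 0.03 (FDR 0.900), none of them called. Wwtr1, which encodes TAZ, changed by 0.60 in WT (FDR 0.0570), 1.01 in Egr1KO (FDR 0.0398, called) and 0.67 in FosBcKO (FDR 0.0156, under 2-fold). Its libraries at 6 h stood wholly above those at 0 h in WT (28.2% of all genes) and FosBcKO (22.8%). In Egr1KO they overlapped, with 48.8 to 56.1 CPM at 0 h and 54.6 to 128 CPM at 6 h. Of 7 genes for SRF and its cofactors 4 were named, which left out Mrtfa, Mrtfb and Elk1, and Srf was the 1 called in each genotype. Between genotypes, the calls in the 5 lists were Dusp5, lower in Egr1KO at 0 h (-1.82, FDR 1.20e-05), and 7 genes in FosBcKO at 6 h, named here after their values were seen, of which Wwc1, Axl, Nuak2, Elk3, Cnn2 and Junb were higher and Frmd6 was lower. No member was among these calls. In FosBcKO at 6 h the lists, in the order above, held 10, 18, 17, 12 and 4 tested genes, some in more than 1 list. Over all genes 5.41% were called there, and the named genes lean toward changed ones.

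Markers of other cell types also differed between 0 h and 6 h, and their part in the changes of Tagln, Thbs1 and the other genes was not tested. In bulk libraries fewer cells of a type and less RNA per cell cannot be told apart. Of 7 smooth muscle markers 3 were named, and their summed level was 196 to 340.3 CPM over the 9 libraries at 0 h and 87.2 to 184 CPM at 6 h. The sum followed Acta2, at 175 to 321 CPM at 0 h and 38.3 to 98.5 CPM at 6 h, while the other 2 ranged higher at 6 h, as Tagln did. Myh11, the smooth muscle myosin heavy chain, was at 0.937 to 29.5 CPM at 0 h and 4.81 to 66.0 CPM at 6 h, and Smtn, a smoothelin of contractile cells, at 6.01 to 19.1 CPM and 22.3 to 51.4 CPM. Thbs1 is stored in platelets, and of 5 platelet markers 3 were named, with sums of 1.16 to 5.07 CPM in WT, 1.47 to 3.74 CPM in Egr1KO and 3.12 to 3.88 CPM in FosBcKO at 0 h, and of 4.94 to 9.34 CPM, 7.57 to 14.4 CPM and 12.8 to 17.6 CPM at 6 h. Ppbp, a platelet chemokine, was at 0 in all WT and Egr1KO libraries at 0 h. The 4 red blood cell genes were at 0.960 to 68.5 CPM at 0 h and 69.3 to 307 CPM at 6 h, with Hbb-bt at 0 in Egr1KO at 0 h. The 4 named of 6 endothelial markers had 3.11 to 7.49 CPM in WT, 4.06 to 5.47 CPM in Egr1KO and 9.44 to 15.4 CPM in FosBcKO at 0 h, and 48.9 to 120.6 CPM, 10.8 to 30.2 CPM and 31.2 to 97.9 CPM at 6 h.

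Leukocyte markers, 6 named of 9, went from 1.42 to 29.1 CPM in WT, 17.2 to 24.2 CPM in Egr1KO and 21.4 to 24.8 CPM in FosBcKO at 0 h to 16 to 22.8 CPM, 21.7 to 40.5 CPM and 41.0 to 46.6 CPM at 6 h. Markers of pigmented iris and ciliary epithelium, 4 named of 6, had 14.1 to 94.4 CPM in WT, 15.2 to 50.2 CPM in Egr1KO and 29.0 to 72.1 CPM in FosBcKO at 0 h, and 35.5 to 173 CPM, 94.9 to 311 CPM and 164 to 354 CPM at 6 h. The endothelial and red blood cell sums lay wholly higher at 6 h within all 3 genotypes, as Ccn1, Thbs1, Tagln and Srf did. Those of platelets and of the pigmented epithelium did so in both knockouts, and those of leukocytes in FosBcKO. Fibroblast markers, 3 named of 5, had 138 to 294 CPM over the libraries at 0 h and 36.4 to 266 CPM at 6 h. That sum followed Pdgfra, at 130 to 290 CPM at 0 h and 30.1 to 256 CPM at 6 h. Col1a1 was at 1.35 to 9.48 CPM and 1.88 to 7.22 CPM, and Dcn at 0.104 to 5.55 CPM and 0.471 to 3.18 CPM. The sum is therefore a reading of 1 gene and not of fibroblasts as a set.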

How the data were processed

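The 18 libraries were made by the authors from ribodepleted RNA with a stranded, paired-end kit. Read pairs were aligned with Hisat2, and HTSeq-count in its union mode gave the counts for Ensembl genes. The strand setting is not given in the sources used here, and the study's methods name GRCm38 where the submitters' processing notes name GRCm39, so no coordinates are printed. The deposited values are raw counts per gene. The summary lines of HTSeq were removed, and pairs in no annotated gene made up 8.03% to 30.5% of a library. In the RefSeq annotation Ccn2, Lats2, Tagln and Srf overlap other genes, so their counts are less certain.

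The tests used edgeR 4.0.16 in R 4.3.3 on all genes kept by filterByExpr, with TMM scaling and robust dispersions. The quasi-likelihood F-test was used for 6 h against 0 h, for the average over genotypes and for the interactions, and the exact test for each knockout against WT, as in the study's methods. A gene was called at a Benjamini-Hochberg FDR of at most 0.05 and a change over 2-fold. SEs and 95% intervals come from the quasi-likelihood fit. CPM is a count divided by the library's gene total, times 1e+06. The log2 CPM of the correlations and of the likeness to members was instead scaled by TMM, with a prior count of 2, on genes kept by filterByExpr. The study's tables named 7020 gene IDs. The p-values measure the spread between libraries, each a pool of 5 capsules. The tests were run on simulated counts drawn independently for each library. Those counts held no paired or outlying libraries, so they cannot check the calls against either. All 8 members are named whatever their result, and from each list the up to 4 called genes with the largest change in WT. For likeness to a member the 2 genes with the highest r were taken. Some results are not reported here. The members and lists were chosen with earlier results of these data known. Alternatives were DESeq2 1.42.0, RLE size factors, no filter, 10 counts in 3 libraries, no robust option, no fold minimum, the other edgeR test, 1 fit of all libraries, a replicate block, and leaving out each library. Deviations of same-numbered libraries at 0 h and 6 h correlated at 0.10 to 0.25 in all 3 WT pairs. All were over the limit of 0.1, which was taken as pairing. They correlated at 0.02 to 0.15 for Egr1KO and at 0.08 to 0.18 for FosBcKO. Libraries of different numbers reached at most 0.018 in WT, 0.088 in Egr1KO and 0.057 in FosBcKO. In FosBcKO every same-numbered pair thus exceeded all others, so the limit does not settle pairing there. Because group means were removed, a high r of same-numbered libraries by itself lowers that of the others. The contrast between them is therefore partly built in. The main tests used no block. The labels do not say that a number marks the same mice.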

Additional observations from a re-analysis of the deposited data

How the results depend on the processing

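Of the 19 calls on single genes, none changed direction under 335 alternatives, 314 kept the call and 21 lost it. These totals include the setting with no fold minimum, which reuses the main fit and so could not remove a call or change its direction. With no filter on low counts 2 of the 8 genes were called in WT (Ccn1 and Srf), 3 in Egr1KO (Ccn1, Ankrd1 and Srf) and 1 for the interaction with Egr1KO (Ankrd1), and the cause was not tested. With no fold minimum 1 was called in FosBcKO against WT at 6 h (Amotl2). Leaving out 1 library gave 3 to 5 calls in FosBcKO at 6 h against 0 h, 3 to 4 in WT and 4 to 6 in Egr1KO, 0 to 1 in Egr1KO against WT at 0 h, 0 to 1 at 6 h, 0 to 2 in FosBcKO against WT at 0 h and 0 to 1 at 6 h. With the replicate block, Thbs1 in FosBcKO, where the numbers were not taken as pairing, was at 2.62 (FDR 0.152), and apart from Tagln in WT the block changed no other call.

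Values near 0 that were not called changed sign under some alternatives, and the cause was not tested. Ccn1 in Egr1KO against WT at 0 h was -0.0043 with 10 counts in 3 libraries, -4e-04 with RLE size factors and -0.0278 with the replicate block, and -0.26 to 0.15 on leaving out 1 library. Leaving out 1 library at 6 h against 0 h, Lats2 in WT ranged from -0.19 to 0.0365, Amotl2 in Egr1KO from -0.78 to 0.0573 and in FosBcKO from -0.18 to 0.0272, and Ccn2 in FosBcKO from -0.33 to 0.13. In Egr1KO against WT, Ccn2 at 0 h ranged from -0.20 to 0.25, and at 6 h Lats2 from -0.0242 to 0.28, Thbs1 from -0.67 to 0.15 and Tagln from -0.18 to 1.18. In FosBcKO against WT, Thbs1 at 0 h ranged from -0.34 to 0.53, and at 6 h Ccn2 from -0.45 to 0.16, Ankrd1 from -0.75 to 0.50, Lats2 from -0.0194 to 0.24, Thbs1 from -0.80 to 0.37 and Tagln from -0.31 to 1.01. For the interaction with Egr1KO, Amotl2 ranged from -0.034 to 0.76 and Srf from -0.11 to 0.37, and with FosBcKO Thbs1 ranged from -0.89 to 0.26 and Srf from -0.21 to 0.29. Depth limits Tagln and Ankrd1 at 0 h most, with 5 to 52 counts per library.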
